A study of Homo sapiens with 12 samples.

Results

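SGK1, TSC22D3 and 7 further genes that respond to the glucocorticoid receptor or to FOXO transcription factors, or encode them, were examined in 2 human cell lines carrying a hairpin against NCSTN, which encodes nicastrin, a subunit of gamma-secretase. The members were SGK1, TSC22D3, FKBP5, KLF9, TXNIP, DDIT4, NR3C1, FOXO1 and FOXO3. SGK1 and TSC22D3 were chosen by their large differences in HEK293, and the other 7 are linked to them by known biology. All 14 probes that the platform annotation gives these 9 genes were kept, of 18152 kept probes that stand for 11075 named genes. A probe was kept when its detection p-value was under 0.01 on at least 3 of the 12 arrays, and 12 of the 14 probes met that threshold on all 12 arrays.

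RNA of each sample was hybridised to 1 Illumina BeadChip array, with 3 arrays in each of 4 groups. HEK293 is an embryonic kidney line, and HEK001 is an immortalised line of epidermal keratinocytes. Cells of each line received lentivirus with the NCSTN hairpin, labelled A08, or with a pLKO hairpin against luciferase as the control. All 4 groups were therefore exposed to virus for 24 h with polybrene at 10 µg/mL, and all were then selected with puromycin for about 2 weeks, at 2 µg/mL for HEK293 and at 0.5 for HEK001, for which the label writes the unit incompletely. HEK293 cells grew in DMEM with 10% serum, and HEK001 cells in a serum-free keratinocyte medium with added EGF and pituitary extract, so line and medium cannot be told apart. No group was labelled as treated with a glucocorticoid. A single NCSTN hairpin was used, so its other targets cannot be told apart from the loss of NCSTN. The source name gives HEK001 for all 12 samples, whereas 6 of them are HEK293 by title and by the cell line entry, and the titles set the groups here. Nothing in the labels marks the 3 samples of a group as separate cultures. A p-value here therefore reflects the spread among the samples at hand, which could be technical.

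The glucocorticoid receptor, encoded by NR3C1, waits in the cytoplasm in a complex with HSP90 and cochaperones, enters the nucleus when it binds hormone, and then induces genes such as FKBP5, TSC22D3, KLF9 and SGK1. FKBP5 encodes a cochaperone that lowers the affinity of the receptor for hormone, and TSC22D3 encodes GILZ, a leucine zipper protein that carries part of the anti-inflammatory action of glucocorticoids. FOXO factors are nuclear when PI3K signalling is low, and are phosphorylated and exported when AKT or SGK1 is active. SGK1 is a serine/threonine kinase named for its induction by serum and glucocorticoids. TSC22D3, DDIT4 and TXNIP are known targets of both or either of these arms. TXNIP binds thioredoxin and restrains glucose uptake, and DDIT4 restrains mTORC1.

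The sequence that the A08 hairpin targets in NCSTN, which lies on chromosome 1, is given here as the perturbation behind every comparison and is printed in capitals throughout.
A08 target: GCTCTACTGAATACTCTACAT

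RefSeq promoter windows of GRCh38.p14, each running from 250 bases before to 50 bases after an annotated start, were matched for all 9 genes and numbered 25. They were searched on both strands for the FOXO binding motif GTAAACA and for AGAACA, the hexamer of the glucocorticoid receptor's palindromic element. The FOXO motif was found in 3 of the 25 windows, 1 each of NR3C1, TSC22D3 and TXNIP, and in 3.42% of all 35116 windows. The hexamer was found in 2 of the 25 windows, 1 each of SGK1 and FKBP5, and in 14.8% of all windows. The whole palindrome, AGAACA and TGTTCT with any 3 bases between them, stood in 1 of 35116 windows and in none of the members. The window of each of the 4 genes below is shown because it holds a motif and belongs to SGK1 or TSC22D3, on which the choice of members turned, to FKBP5, called in HEK001, or to TXNIP, the member that was lower there. Each is written 5′ to 3′ on the minus strand, with the motif in capitals.
SGK1, chr6:134177812-134178111, AGAACA from position 6: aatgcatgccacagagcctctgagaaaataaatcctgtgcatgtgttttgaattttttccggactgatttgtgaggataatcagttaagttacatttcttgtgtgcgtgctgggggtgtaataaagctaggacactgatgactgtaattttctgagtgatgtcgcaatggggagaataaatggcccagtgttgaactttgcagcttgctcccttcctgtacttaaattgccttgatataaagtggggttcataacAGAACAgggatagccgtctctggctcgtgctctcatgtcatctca
TSC22D3, chrX:107717013-107717312, GTAAACA on the opposite strand from position -147, so that it reads here as its reverse complement: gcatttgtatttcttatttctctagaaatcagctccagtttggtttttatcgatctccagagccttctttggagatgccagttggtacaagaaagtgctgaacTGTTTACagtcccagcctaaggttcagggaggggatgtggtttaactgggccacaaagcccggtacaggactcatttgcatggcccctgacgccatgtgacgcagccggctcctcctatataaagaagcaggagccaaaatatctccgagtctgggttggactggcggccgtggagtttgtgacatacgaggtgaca
FKBP5, chr6:35728534-35728833, AGAACA from position 1: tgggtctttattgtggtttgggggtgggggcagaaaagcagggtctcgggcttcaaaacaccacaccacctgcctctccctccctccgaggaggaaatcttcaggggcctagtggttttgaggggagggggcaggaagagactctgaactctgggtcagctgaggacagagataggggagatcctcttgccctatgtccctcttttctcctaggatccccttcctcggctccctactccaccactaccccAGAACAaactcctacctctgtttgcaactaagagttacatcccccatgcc
TXNIP, chr1:145996530-145996829, GTAAACA from position -124: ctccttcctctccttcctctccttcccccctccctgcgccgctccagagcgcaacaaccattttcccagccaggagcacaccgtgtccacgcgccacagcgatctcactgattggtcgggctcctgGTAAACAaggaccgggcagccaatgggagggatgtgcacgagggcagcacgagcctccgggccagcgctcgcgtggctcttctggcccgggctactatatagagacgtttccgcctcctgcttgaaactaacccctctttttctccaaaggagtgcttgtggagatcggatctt
Positions count the annotated start as 1 and the base before it as -1. The motifs searched do not overlap in these windows, and the other windows of SGK1, TSC22D3 and FKBP5 hold neither. The TXNIP window also holds CCAAT, a general promoter element, on both sides of its FOXO motif, at -140 on the opposite strand and at -105, and CCAAT stands in 34.6% of all windows. No binding was measured on these arrays, so a match describes the letters of the window and nothing more.

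Between 14818 and 16333 of 47318 probes were detected per array, and each value of a member probe averaged 12 to 43 beads. Values below are log2 normalised intensities, and differences are A08 minus pLKO with the standard error (SE) of the fit. NCSTN itself fell by 1.97 in HEK293 (SE 0.119, limma adjusted p = 4.01e-07) and fell by 3.09 in HEK001 (SE 0.119, limma adjusted p = 4.34e-08), which left 25.5% and 11.8% of the control level. All 6 measured HEK293 markers were detected in both HEK293 arms, and all 8 measured keratinocyte markers, KRT5 and KRT14 among them, in both HEK001 arms. In HEK293 no keratinocyte marker was detected on all 3 arrays of an arm, apart from LAMB3 in the A08 arm. In HEK001, by contrast, 1 HEK293 marker was detected on all 3 A08 arrays and 2 on all 3 pLKO arrays. The summed linear intensity of the HEK293 markers was 19839.9 to 20999.6 on HEK293 A08 arrays, against 12653 to 13307 on HEK293 pLKO arrays. Of these 6 genes VIM, for vimentin, alone was called in HEK293, 1.79 higher in the A08 arm, while the list's median difference was -0.083. In HEK001 CDH2 (-1.07, limma adjusted p = 0.000251) and VIM (-0.34) were called lower, the VIM call being lost in 6 leave-outs of 1 array. The summed intensity of the keratinocyte markers was 47195 to 51427 on HEK001 A08 arrays, against 38755 to 40162 on HEK001 pLKO arrays. Of these 8 genes 5 were called higher in HEK001, where 7.21% of all genes were called higher and 6.71% lower. With the authors' log2 values 1 was called higher. With arrays scaled to the median it was 2 over all probes and 3 over kept probes. The part of these marker differences in the member values was not tested. Of the listed markers of fibroblasts, leukocytes and melanocytes, 2 of 7, 3 of 6 and 1 of 4 had a named probe. The annotation used names 1 gene for 16040 of the 47318 probes, so the other markers may be on the array under unnamed probes. At most 1 per list was detected in any group. COL1A1, PMEL and CD14 were called lower in HEK293, at -0.88, -0.68 and -0.51, and CD74 in HEK001, at -0.37. The calls of PMEL, CD14 and CD74 were each lost in at least 3 leave-outs of 1 array. In these bulk samples a change in the kinds of cells and a change in RNA per cell cannot be told apart.

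SGK1 was about 5-fold higher with the NCSTN hairpin than with the control hairpin in HEK293, and its HEK293 A08 level came close to that of HEK001. Its probe ILMN_1702487 read 9.83, 9.66 and 9.76 on the HEK293 A08 arrays, against 7.54, 7.39 and 7.11 on the HEK293 pLKO arrays. On this probe HEK001 read 10.26, 10.31 and 10.28 with A08, against 10.18, 10.03 and 10.02 with pLKO. The 3 HEK293 control arrays stood far below the other 9 arrays, which all lay between 9.66 and 10.31. The difference in HEK293 was 2.40 (SE 0.113), or 5.29-fold, and is given without a test because SGK1 was selected on it. Probe ILMN_3229324 read 9.22, 9.48 and 9.17 with A08, against 7.08, 6.97 and 6.70 with pLKO in HEK293, a difference of 2.37. Probe ILMN_3305938 read 8.91, 9.12 and 9.09 with A08, against 6.82, 6.52 and 6.43 with pLKO in HEK293, a difference of 2.45. The 3 probes, all annotated to transcript NM_005627 of the gene at chr6:134169256-134318112, thus gave nearly the same size of difference.

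In HEK001, whose arrays did not enter the choice of SGK1, none of its 3 probes passed the test. The differences were 0.20, 0.18 and 0.26, with limma adjusted p-values of 0.277, 0.419 and 0.173. The 95% interval, not adjusted for the number of probes, ran from -0.042 to 0.45 for ILMN_1702487 and from -0.10 to 0.47 for ILMN_3229324. For ILMN_3305938 it ran from 0.0064 to 0.50 and so just excluded 0. The A08 and pLKO arrays of SGK1 did not overlap in HEK001 on 2 of the 3 probes. The probe ILMN_3229324 overlapped, with 9.79, 10.03 and 9.92 on A08 arrays, against 9.93, 9.59 and 9.67 on pLKO arrays.

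TSC22D3 showed the reverse in HEK293, where all 3 of its probes were about 5-fold or more lower with the NCSTN hairpin. Probe ILMN_1748124, annotated to NM_198057, read 9.21, 9.33 and 9.32 on the HEK293 A08 arrays, against 11.75, 11.67 and 11.53 on the HEK293 pLKO arrays. Probe ILMN_2376403, annotated to NM_004089, read 8.25, 8.52 and 8.42 with A08, against 11.07, 10.94 and 10.88 with pLKO in HEK293. In each case the HEK293 control arrays stood above all 9 other arrays. The differences were -2.36 (SE 0.096) and -2.57 (SE 0.112), or 5.14-fold and 5.93-fold lower, and carry no test because TSC22D3 was selected on them. The other NM_004089 probe, ILMN_2276952, was detected on no HEK293 A08 array and on all 3 HEK293 pLKO arrays, where it read 7.84, 7.97 and 7.28. It was therefore at least 5.10-fold lower, the pLKO mean being set, per A08 array, against the higher of the probe's own value and the dimmest detected probe.

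In HEK001 TSC22D3 was higher with the hairpin on its 2 well-detected probes, and 1 of them passed the test. ILMN_2376403 read 8.78, 8.83 and 8.74 on HEK001 A08 arrays, against 8.08, 7.90 and 8.25 on HEK001 pLKO arrays. It rose by 0.71 (SE 0.112, limma adjusted p = 0.00162), a 1.63-fold increase, with every A08 array above every pLKO array. ILMN_1748124 read 9.53, 9.47 and 9.39 with A08, against 9.10, 9.28 and 9.18 with pLKO, and its difference of 0.27 missed the threshold (limma adjusted p = 0.083). The dim probe ILMN_2276952 was detected on 1 HEK001 A08 array and on no HEK001 pLKO array, so no change is stated for it. The call of ILMN_2376403 held on leaving out each of the 12 arrays in turn. It was lost when arrays were scaled to the median over all probes, most of which were not detected (0.65, limma adjusted p = 0.0752).

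**Figure D1:**
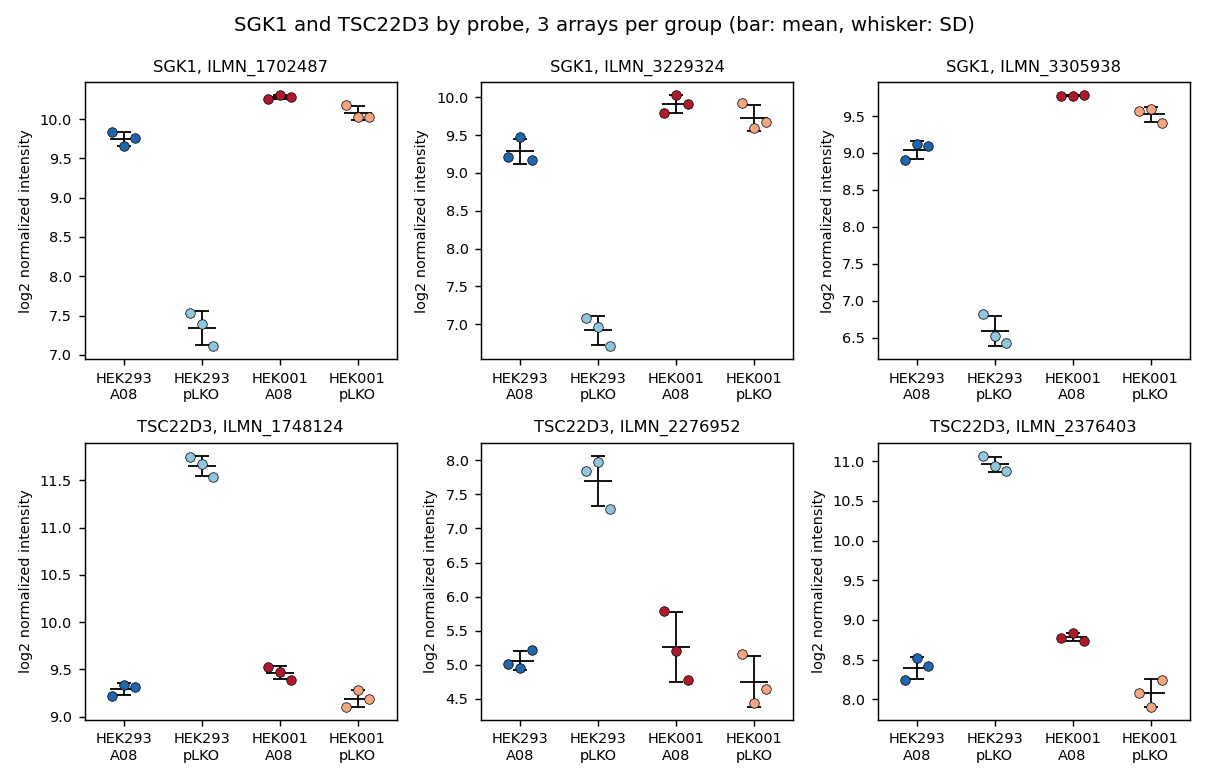
Log2 normalised intensity of the 3 probes of SGK1 (top) and the 3 of TSC22D3 (bottom) on the 12 arrays, with points for arrays, a bar for the group mean and whiskers for the SD (n = 3 each). The HEK293 pLKO arrays stand apart from the other 9 on each probe, low for SGK1 and high for TSC22D3, and ILMN_2276952 lies near the detection limit in the other 3 groups.

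FKBP5 was the other member to pass the test in HEK001, and it was higher with the hairpin in both lines. The cochaperone's probe ILMN_1778444 read 10.48, 10.41 and 10.55 on HEK001 A08 arrays, against 10.05, 9.77 and 9.77 on HEK001 pLKO arrays. It rose by 0.62 (SE 0.110, limma adjusted p = 0.00326), or 1.53-fold, and its groups did not overlap. The call held on leaving out each array in turn and was lost under median scaling over all probes (0.54, limma adjusted p = 0.198). In HEK293 it read 9.49, 9.42 and 9.49 with A08, against 9.24, 8.93 and 9.10 with pLKO, a difference of 0.38 (SE 0.110). That HEK293 difference carries no test here, and the gene lies at chr6:35573590-35728583. FKBP5 and the members below were chosen with earlier results of these data known. Their HEK001 adjusted p-values therefore describe the genes and give no independent support.

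KLF9, a zinc finger transcription factor induced by glucocorticoids, had the same pair of directions as TSC22D3 but smaller differences. ILMN_1778523 read 8.35, 8.30 and 8.46 on HEK293 A08 arrays, against 9.21, 9.29 and 9.39 on HEK293 pLKO arrays. All 3 A08 arrays were below all 3 pLKO arrays, by 0.93 on average (SE 0.096), or 1.90-fold. In HEK001 it read 9.10, 9.20 and 8.97 with A08, against 8.86, 8.82 and 8.76 with pLKO, and the difference of 0.28 missed the threshold (limma adjusted p = 0.0826).

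NR3C1, the receptor itself, was dim. ILMN_2389347, annotated to NM_001020825, read 6.15, 6.17 and 6.18 on HEK293 A08 arrays, against 5.89, 5.26 and 5.36 on HEK293 pLKO arrays, of which 1 was above the detection threshold. The A08 arrays were above the pLKO arrays by 0.66 (SE 0.171). In HEK001 it read 6.35, 6.05 and 6.27 with A08, against 6.50, 6.27 and 5.94 with pLKO, and the groups overlapped. That difference was -0.016 (limma adjusted p = 0.971), with a 95% interval of -0.39 to 0.36.

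FOXO1 and FOXO3, transcription factors held out of the nucleus by AKT and SGK phosphorylation, differed little between the arms of HEK293. In HEK001 each of their probes was higher with A08 but missed the threshold. FOXO1, measured by ILMN_1738816, read 7.22, 7.11 and 7.25 on HEK293 A08 arrays, against 7.16, 7.29 and 7.32 on HEK293 pLKO arrays. It read 6.79, 6.37 and 6.42 on HEK001 A08 arrays, against 6.13, 6.26 and 6.12 on HEK001 pLKO arrays. The HEK293 groups overlapped and the HEK001 groups did not, yet the HEK001 difference of 0.36 missed the threshold (limma adjusted p = 0.0649). The brighter FOXO3 probe, ILMN_1681703, read 10.91, 10.84 and 10.85 with A08, against 10.77, 10.85 and 10.69 with pLKO in HEK293. It read 9.85, 9.95 and 10.08 with A08, against 9.64, 9.70 and 9.70 with pLKO in HEK001. Here too the HEK293 groups overlapped and the HEK001 groups did not, and the HEK001 difference of 0.28 missed the threshold (limma adjusted p = 0.0647). The second FOXO3 probe, ILMN_1844692, differed by 0.12 in HEK293 and by 0.20 in HEK001 (limma adjusted p = 0.193). Transcript levels carry no information on where the FOXO proteins were in the cell.

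TXNIP, which curbs glucose uptake, and DDIT4, a stress-induced inhibitor of mTORC1, separated the lines more than the hairpins. TXNIP, by ILMN_1697448, read 8.74, 8.54 and 8.47 on HEK293 A08 arrays, against 8.54, 8.53 and 8.53 on HEK293 pLKO arrays. It read 10.87, 10.91 and 10.67 on HEK001 A08 arrays, against 11.22, 11.09 and 11.02 on HEK001 pLKO arrays. TXNIP was the member whose HEK001 A08 arrays all lay below the pLKO arrays, and its difference of -0.29 missed the threshold (limma adjusted p = 0.0897). DDIT4, by ILMN_1661599, read 9.84, 9.84 and 9.53 with A08, against 10.42, 10.41 and 10.31 with pLKO in HEK293, a difference of -0.65 (SE 0.107) without overlap. It read 12.35, 12.48 and 12.56 with A08, against 12.35, 12.27 and 12.25 with pLKO in HEK001, where the difference of 0.18 did not pass (limma adjusted p = 0.318).

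**Figure D2:**
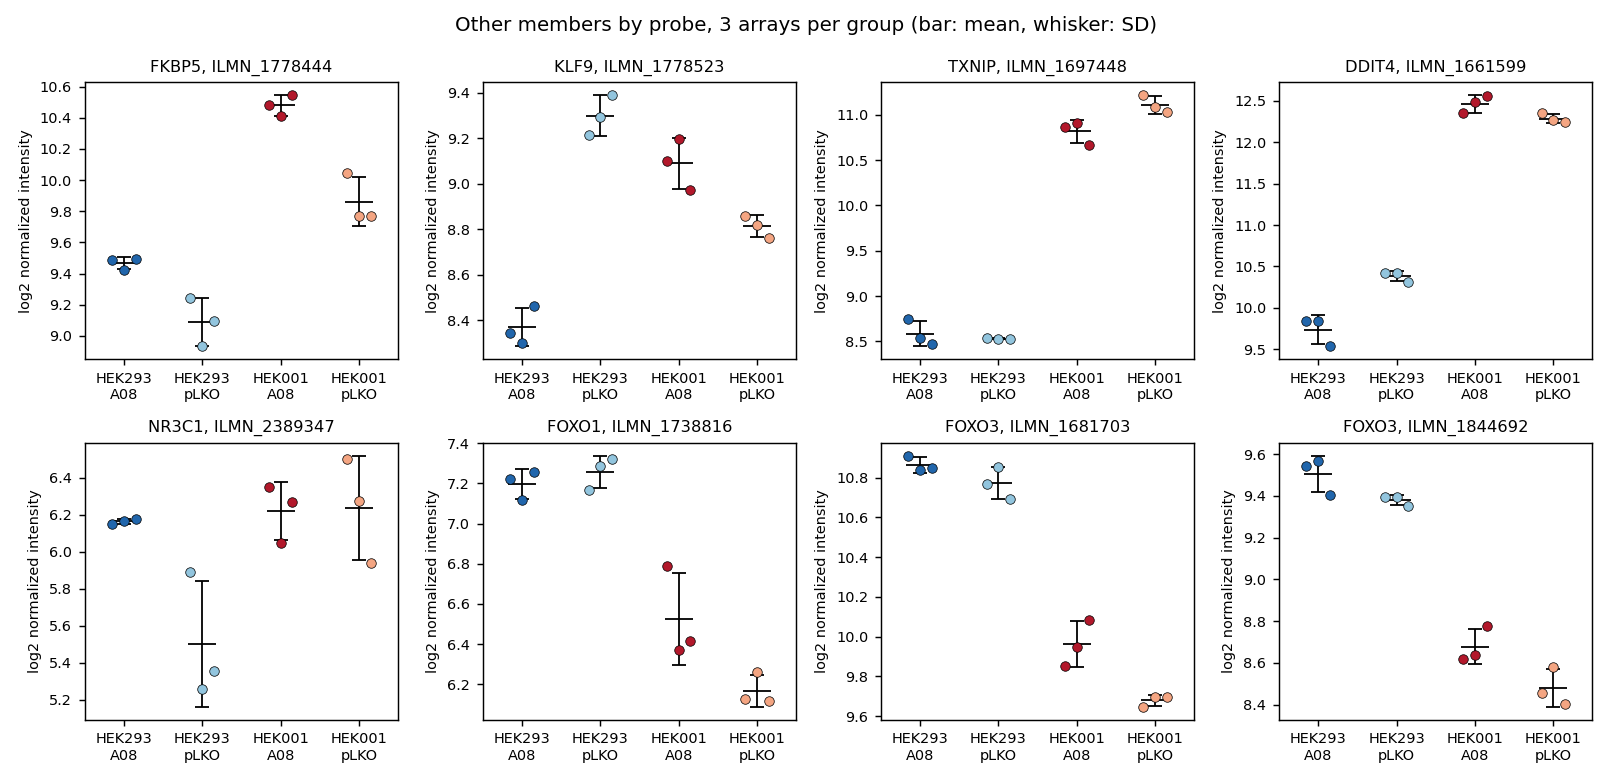
Log2 normalised intensity of the 8 probes of the other 7 members on the 12 arrays, with points for arrays, a bar for the group mean and whiskers for the SD (n = 3 each). FKBP5 is higher with A08 in both lines, KLF9 and DDIT4 are lower with A08 in HEK293, and TXNIP and DDIT4 lie far higher in HEK001 than in HEK293.

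Counted over the 14 member probes, 2 rose and none fell in HEK001, where 6.37% of all 18152 probes were called higher and 6.04% lower. By the brightest probe of each gene, 1 of the 9 members was called higher, FKBP5, where 7.21% of all genes were called higher and 6.71% lower. The members' A08 and pLKO arrays did not overlap for 10 of the 14 probes, 9 higher and 1 lower, against 32% of all probes. Their median difference was 0.27, and that of all kept probes was -0.0073. The other 12 of the 14 probes did not pass the adjusted threshold. The 2 probes that passed are the ILMN_2376403 probe of TSC22D3 and that of FKBP5, and the count was 0 under median scaling over all probes and 4 with an offset of 50.

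In HEK293, 5 member probes were called higher and 5 lower, where 9.89% of all probes were called higher and 10.7% lower. By gene these were 3 higher (SGK1, FKBP5 and NR3C1) and 3 lower (TSC22D3, KLF9 and DDIT4), where 10.9% of all genes were called higher and 12.3% lower. A08 and pLKO arrays did not overlap for 6 member probes that were higher and 5 that were lower, against 36.4% of all probes. Nothing is read from these HEK293 counts, since 6 of the 14 probes belong to the pair of genes chosen for their differences there. The median difference was 0.074 over the member probes and 0.013 over all kept probes. The HEK293 values of the other members were also known when they were chosen, so what follows describes their calls and tests nothing. Among the called members other than that pair, KLF9 and DDIT4 kept their calls on leaving out each array in turn. FKBP5 lost it on leaving out 5 of the 6 HEK293 arrays, 1 at a time, and NR3C1 on leaving out pLKO replicate 2 or 3.

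**Figure D3:**
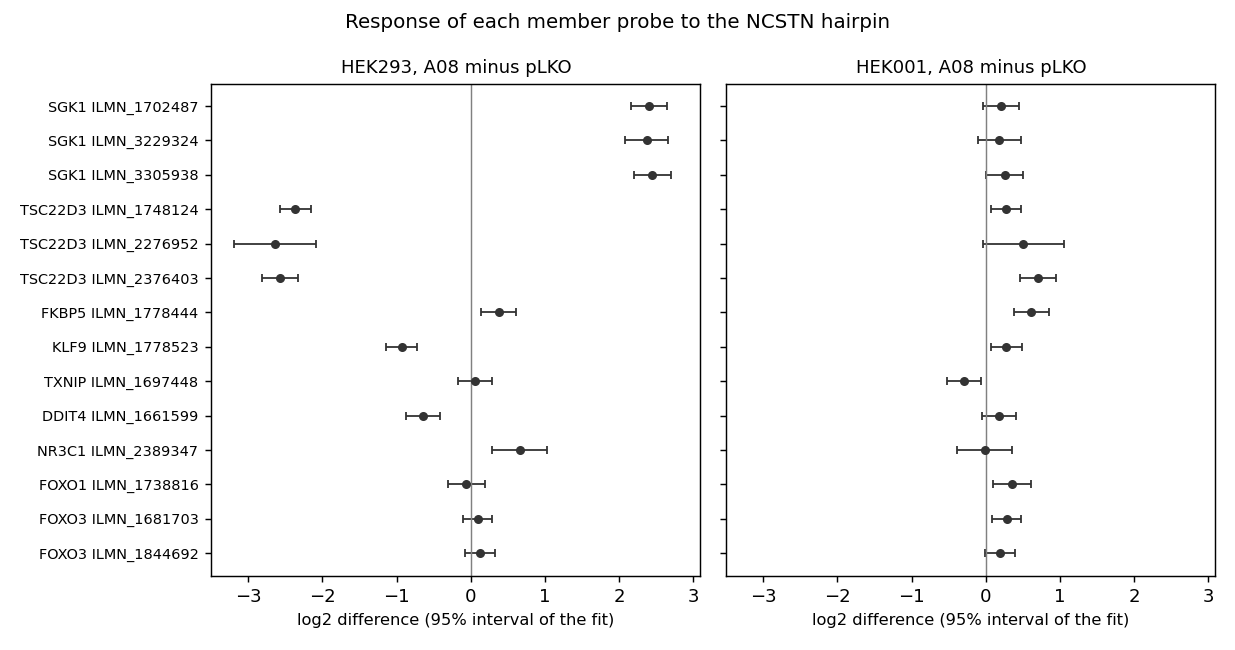
Log2 difference, A08 minus pLKO, of each of the 14 member probes in HEK293 (left) and HEK001 (right), with the 95% interval of the fit over 12 arrays. In HEK293 SGK1 and TSC22D3 lie near 2.4 and -2.4 on opposite sides of 0, and in HEK001 every interval lies within about 1 unit of 0.

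Set in order of level, SGK1 was highest in HEK001 A08 cells, followed by HEK001 pLKO, HEK293 A08 and HEK293 pLKO cells, with means of 10.28, 10.08, 9.75 and 7.34 on ILMN_1702487. The difference between the first pair of neighbours in that order did not pass the test above, while HEK293 A08 minus HEK001 A08 was -0.53 (SE 0.113). In control cells HEK293 minus HEK001 was -2.73 (SE 0.113). On ILMN_3229324 it was -2.81 in control cells and -0.62 with A08, and on ILMN_3305938 -2.93 and -0.74. For TSC22D3 on ILMN_1748124 the order began with HEK293 pLKO at 11.65, and HEK001 A08, HEK293 A08 and HEK001 pLKO followed at 9.46, 9.29 and 9.19. HEK293 exceeded HEK001 by 2.46 in control cells (SE 0.096), and differed from it by -0.18 with A08 (SE 0.096, 95% interval -0.38 to 0.032). On ILMN_2376403 HEK293 minus HEK001 was 2.89 in control cells and -0.39 with A08 (SE 0.112, 95% interval -0.63 to -0.14), an interval that excludes 0. Thus for both genes the gap between the lines in control cells was much smaller between the A08 arms, a description of the same arrays that led to their choice.

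The gaps of the other members, in each arm, were as follows. HEK293 minus HEK001 was -2.23 with A08 and -2.58 with pLKO for TXNIP, and -2.73 with A08 and -1.91 with pLKO for DDIT4. For FKBP5 it was -1.01 with A08 and -0.77 with pLKO. FOXO1 was higher in HEK293 by 0.67 with A08 and by 1.09 with pLKO, and FOXO3 on ILMN_1681703 by 0.90 with A08 and 1.09 with pLKO. The sign was the same in both arms for all of these. KLF9 gave -0.72 with A08 and 0.48 with pLKO, and NR3C1 -0.058 with A08 and -0.74 with pLKO. The SEs of these line differences ranged from 0.092 for FOXO3 to 0.171 for NR3C1. In control cells the gap of each member, SGK1 and TSC22D3 included, depended on the scaling or the offset. Under median scaling over all probes it was -1.13 for FKBP5, -2.90 for TXNIP and -2.24 for DDIT4. There it was -3.04 for SGK1 on ILMN_1702487 and 2.08 for TSC22D3 on ILMN_1748124. For FOXO1 it was 0.82 with an offset of 50. The gap of KLF9 was 0.14 under median scaling over all probes and 0.30 over kept probes. That of FOXO3 on ILMN_1681703 was 0.69 over all probes, and that of NR3C1 was -0.46 with an offset of 50.

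Of 40 other known targets of the glucocorticoid receptor, 32 were measured, and they did not move one way. This list and those below were drawn up with earlier results of these data known. Their adjusted p-values therefore describe the genes and give no independent support. By the brightest probe of each gene, 11 were called higher and 3 lower in HEK293, and 7 higher and 1 lower in HEK001. Over all genes 10.9% were called higher and 12.3% lower in HEK293, and 7.21% higher and 6.71% lower in HEK001. Their median difference was 0.15 in HEK293 and 0.047 in HEK001, against 0.0065 and -0.0064 over all genes. The list's highest difference in HEK293 was that of ANXA1, for annexin A1, a mediator of glucocorticoid action on inflammation. It averaged 9.57 ± 0.05 with A08 and 5.89 ± 0.23 with pLKO in HEK293 (SD, n = 3 each), a rise of 3.68 (SE 0.115, limma adjusted p = 3.06e-09). CEBPD, a transcription factor of the acute phase response, rose by 0.80 and MT2A, a metallothionein, by 0.73. CRISPLD2, a secreted protein, was not detected in HEK293 pLKO cells and was at least 1.54-fold higher with A08 (limma adjusted p = 3.19e-05). In the other direction, MAOA, for monoamine oxidase A, fell by 1.50 in HEK293 (SE 0.155, limma adjusted p = 3.26e-05). PDK4, a kinase that shuts down pyruvate dehydrogenase, was not detected with A08 and was at least 1.03-fold lower (limma adjusted p = 0.00258).

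In HEK001 the same list was led by PIK3R1, a PI3K regulatory subunit, and ERRFI1, a feedback inhibitor of the EGF receptor. They rose by 1.08 (SE 0.156) and 1.04 (SE 0.161), with limma adjusted p-values of 0.000945 and 0.00142. CEBPD rose by 0.74 and MAOA by 0.69 there, and DUSP1, a phosphatase of MAP kinases, fell by 0.45. A dimmer probe of GLUL was higher by 0.995 in HEK001 (limma adjusted p = 0.00199), whereas its brightest probe differed by 0.50 (limma adjusted p = 0.23). The HEK001 call of MAOA was lost without pLKO replicate 3 (limma adjusted p = 0.0543), and that of DUSP1 without A08 replicate 3, pLKO replicate 1 or pLKO replicate 3 (up to 0.0649). Over the list, the HEK001 count was 4 higher and 0 lower without pLKO replicate 3, and 5 higher and 0 lower without A08 replicate 3 or without pLKO replicate 1. With median scaling over all probes it was 2 higher and 0 lower, and in HEK293 5 higher and 1 lower. MT1E, which has near-identical paralogs, was called lower in HEK293, where it was detected on 2 of 3 A08 arrays, and higher in HEK001, both at the edge of the threshold. Each of its calls was lost on leaving out at least 10 of the 12 arrays, 1 at a time, with limma adjusted p-values up to 0.179 in HEK293 and 0.148 in HEK001.

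Of 35 other known FOXO targets, 28 were measured, and in HEK293 5 were called higher and 5 lower. Over all genes 10.9% were called higher and 12.3% lower there. CDKN1A, the p21 inhibitor of cell cycle kinases, rose by 0.84 (SE 0.097, limma adjusted p = 7.92e-05), and CITED2, a transcriptional coregulator, by 0.74. BCL2L11, which encodes the death promoter BIM, rose by 0.63, and the stress gene GADD45A by 0.48. GADD45A lost this call without HEK293 pLKO replicate 1 (limma adjusted p = 0.0568). FBXO32, the ubiquitin ligase atrogin-1, fell by 1.14 in HEK293 (SE 0.125, limma adjusted p = 5.41e-05), and its second probe by 1.05. ERBB3, a receptor tyrosine kinase, fell by 0.92 on one probe, whereas its other probe differed by -0.17 (limma adjusted p = 0.541). BNIP3, a mitophagy receptor, fell by 0.67. The dimmer probes of CCNG2 went opposite ways in HEK293, at 0.80 (limma adjusted p = 0.0262) and -0.63 (limma adjusted p = 0.00965). The list's median in HEK293 was 0.0066, against 0.0065 over all genes, and with median scaling over all probes 2 were higher and 2 lower.

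In HEK001, 7 of the 28 FOXO targets were called higher and 1 lower, with a median of 0.097, but these counts rested on few arrays. Over all genes 7.21% were called higher and 6.71% lower there. ERBB3 rose by 0.67 (its other probe differed by 0.12), BCL6, a transcriptional repressor, by 0.62, and the sestrins SESN3 and SESN1 by 0.54 and 0.52. GADD45A fell by 0.47. On a dimmer probe CCNG2 was higher by 0.61 (limma adjusted p = 0.0179), and on another it differed by 0.39 (limma adjusted p = 0.318). Without HEK001 pLKO replicate 3 the count was 1 higher and 0 lower, and without pLKO replicate 1 it was 3 higher and 0 lower. Without A08 replicate 1, 2 or 3 it was 3 higher and 1 lower, 3 higher and 0 lower, and 4 higher and 0 lower. With median scaling over all probes none was called. BCL6 kept its call on leaving out each array in turn (limma adjusted p up to 0.0349). The calls of ERBB3, SESN3, SESN1 and GADD45A each failed without pLKO replicate 3, with limma adjusted p-values over the arrays left out of up to 0.0649, 0.101, 0.114 and 0.0903.

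**Figure D4:**
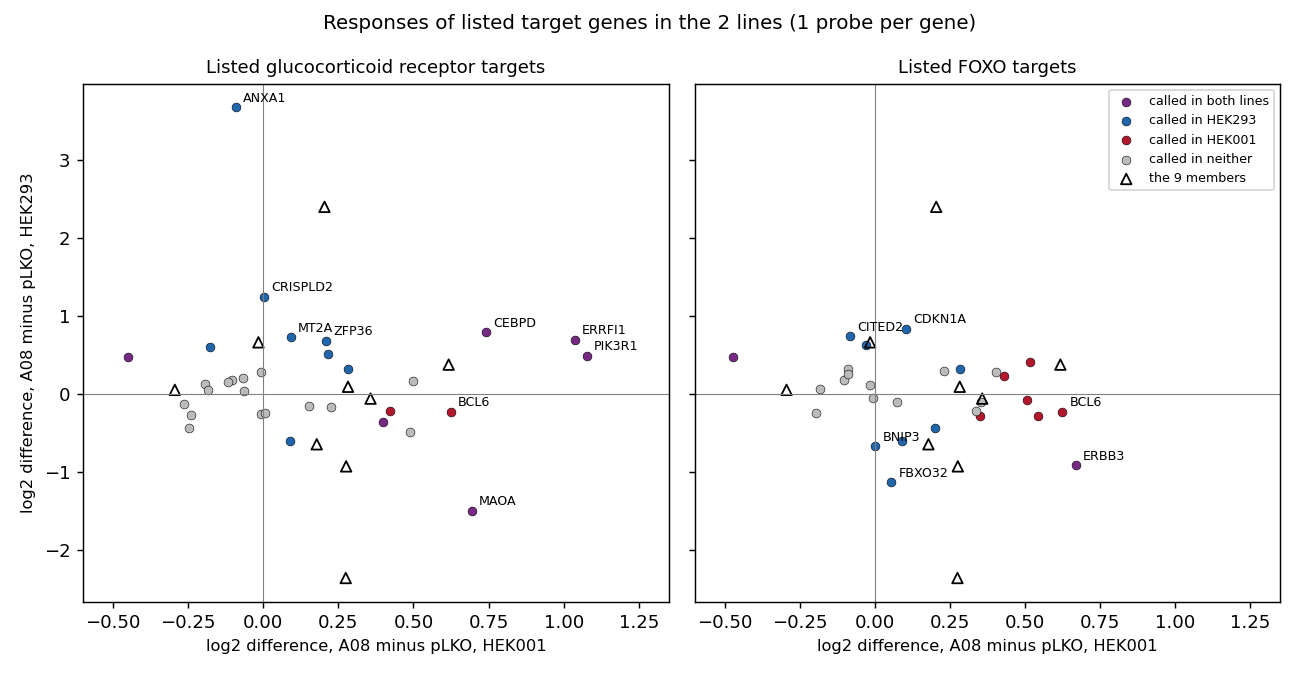
Log2 difference, A08 minus pLKO, in HEK293 (vertical) and in HEK001 (horizontal) of 32 listed glucocorticoid receptor targets (left) and 28 listed FOXO targets (right), 1 probe per gene, coloured by the lines in which limma called them, with the 9 members as open triangles in both panels. ANXA1 stands at 3.68 in HEK293 near 0 in HEK001, MAOA is lower in HEK293 and higher in HEK001, and CEBPD, ERRFI1 and PIK3R1 are higher in both lines.

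Of 22 genes of the machinery that folds and assists the receptor, 16 were measured and in each line 13 of these were not called. In HEK293 3 rose and none fell, where 10.9% of all genes were called higher and 12.3% lower, and the list's median was -0.015. They were CREBBP, a coactivator acetyltransferase, by 0.77 (SE 0.105, limma adjusted p = 0.000281), DNAJB1, an HSP40 chaperone, by 0.56, and HSPA8, a constitutive HSP70, by 0.50. In HEK001 none rose and 3 fell, where 7.21% of all genes were called higher and 6.71% lower, and the list's median was -0.074. They were HSP90AA1, the inducible HSP90, by 0.76 (SE 0.089, limma adjusted p = 0.000216), FKBP4, the cochaperone that takes the place of FKBP5 in the complex when hormone binds, by 0.48, and HSPA8 by 0.44. A second HSP90AA1 probe fell by 0.88 and the third differed by 0.097 (limma adjusted p = 0.768). In HEK001, HSPA8 lost its call without A08 replicate 1 or pLKO replicate 1 (limma adjusted p up to 0.0515), and without that pLKO array the count was 1 higher and 2 lower. With median scaling over all probes, CREBBP in HEK293 and HSP90AA1 in HEK001 were still called. Among the 10 measured FKBP relatives of FKBP5, FKBP10, detected on 2 of 3 A08 arrays, fell by 0.69 in HEK293, a call lost with the authors' log2 values, and FKBP4 fell in HEK001, as above, and no other passed on its brightest probe. On dimmer probes FKBP1A was higher by 0.52 in HEK001 (limma adjusted p = 0.0215) and FKBP2 by 0.64 in HEK293 (limma adjusted p = 0.0243). Of 10 measured KLF factors other than KLF9, KLF13 rose by 0.63 in HEK001 (limma adjusted p = 0.00877). In HEK293 KLF6 rose by 0.32 and KLF12, detected on 1 of 3 A08 arrays, fell by 0.57, and each call failed without 3 of the HEK293 arrays, 1 at a time, among them A08 replicate 2 and A08 replicate 3 (limma adjusted p up to 0.103 and 0.0613). A dimmer probe of KLF4 was higher by 0.62 in HEK293 (limma adjusted p = 0.0295).

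Around SGK1, 22 of 34 listed genes of the SGK, AKT and PI3K pathway were measured. In HEK293 3 were called higher and 4 lower, where 10.9% of all genes were called higher and 12.3% lower. In HEK001 3 were called higher and 1 lower, where 7.21% of all genes were called higher and 6.71% lower. NDRG1, a protein phosphorylated by SGK1, averaged 9.60 ± 0.20 with A08 and 11.31 ± 0.13 with pLKO in HEK293 (SD, n = 3 each). It fell by 1.72 there (SE 0.136, limma adjusted p = 3.76e-06), while SGK1 was higher in the same cells. In HEK001 NDRG1 rose by 0.55, a call lost without A08 replicate 1 or 2 or pLKO replicate 1 or 2 (limma adjusted p up to 0.0764). FOXO4 rose by 0.60 in HEK001, and SKP2, a ubiquitin ligase subunit, fell by 0.52 there, with 1 of its other probes at -0.69 and the other at 0.07. On the brightest probe of each gene the remaining HEK293 calls were below 0.5 in size. They were PIK3R1 at 0.49, the ubiquitin ligases NEDD4 at 0.42 and NEDD4L at 0.33, NDRG2 at -0.42, AKT1 at -0.39 and SKP2 at -0.27. Each of these 6 failed without at least 4 of the 12 arrays, 1 at a time (limma adjusted p up to 0.179), and all failed under either median scaling. A dimmer probe of NEDD4 was higher by 0.64 in HEK293 (limma adjusted p = 0.00563), and 1 of SKP2 differed by -0.60 there (limma adjusted p = 0.0018) and its other by 0.049 (limma adjusted p = 0.916). The HEK293 count was 0 higher and 1 lower under median scaling over all probes and over kept probes. Leaving out 1 HEK293 array gave 0 to 2 higher and 1 to 4 lower, the fewest, 0 and 1, without A08 replicate 2. Leaving out A08 replicate 2 or any pLKO replicate of HEK001 gave 1 higher and 3 or 4 lower.

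Among the neighbours of TXNIP in glucose sensing, 2 of 10 measured genes were called in each line, 1 higher and 1 lower in HEK293 and 2 higher in HEK001. Over all genes 10.9% were called higher and 12.3% lower in HEK293, and 7.21% higher and 6.71% lower in HEK001. MLXIPL, the glucose-responsive factor ChREBP, fell by 1.24 in HEK293 (SE 0.159, limma adjusted p = 0.000171), and its other probe by 0.41 (limma adjusted p = 0.038). SLC2A1, the glucose transporter GLUT1, rose by 0.34 in HEK293, a call lost without any of 5 HEK293 arrays (limma adjusted p up to 0.0846), all but pLKO replicate 1. It rose by 0.55 in HEK001 (SE 0.096, limma adjusted p = 0.00296). The arrestin relative ARRDC1, detected on 2 of 3 pLKO arrays, rose by 0.75 in HEK001, and this call failed without A08 replicate 1, pLKO replicate 1 or pLKO replicate 2 (limma adjusted p up to 0.0621).

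Among the 17 genes that regulate mTORC1 alongside DDIT4, by the brightest probe of each, none was called higher and 4 lower in HEK293. In HEK001 3 were called higher and none lower. Over all genes 10.9% were called higher and 12.3% lower in HEK293, and 7.21% higher and 6.71% lower in HEK001. A dimmer probe of FLCN, for folliculin, was higher by 0.71 in HEK293 (limma adjusted p = 0.00537). DEPTOR, an inhibitor bound to mTOR, was not detected in HEK293 A08 cells and was at least 1.18-fold lower (limma adjusted p = 0.000433). EIF4EBP1, the translational repressor 4E-BP1, fell by 0.54, DDIT4L, the paralog of DDIT4, by 0.47, and ULK1, the autophagy kinase, by 0.27. EIF4EBP1 lost its call without HEK293 A08 replicate 1 or pLKO replicate 2 (limma adjusted p up to 0.0591), either of which brought the count to 2 lower. ULK1 lost it without 10 of the 12 arrays, 1 at a time (up to 0.116). In HEK001 the 3 genes were SESN3 and SESN1, given above, and TSC1, which restrains RHEB, at 0.46. Without A08 replicate 1 or 2 or pLKO replicate 1 of HEK001 none of the 3 was called, and without pLKO replicate 2 or 3 a single gene was.

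The TSC22 family and its partners, 6 of 6 measured, gave 1 higher and 1 lower in each line. Over all genes 10.9% were called higher and 12.3% lower in HEK293, and 7.21% higher and 6.71% lower in HEK001. NRBP1, a pseudokinase that binds TSC22 proteins, rose by 0.69 in HEK293 (limma adjusted p = 0.00816). Its paralog NRBP2 fell by 0.67 in HEK293 (SE 0.113, limma adjusted p = 0.00126) and rose by 0.69 in HEK001 (SE 0.113, limma adjusted p = 0.00188), the same pair of directions as TSC22D3. TSC22D1 fell by 0.46 in HEK001 on its brightest probe (limma adjusted p = 0.00955), and its other probes there differed by -0.16 and -0.23 without passing. In HEK293 1 of those dimmer TSC22D1 probes was higher by 0.68 (limma adjusted p = 0.00851), and a dimmer TSC22D2 probe by 0.49 (limma adjusted p = 0.0287). The 4 calls on brightest probes held on leaving out each array in turn and failed under median scaling over all probes. Of all calls on brightest probes named here from the pathway lists, those that held under that scaling in HEK293 were ANXA1, CRISPLD2, CEBPD, MT2A, MAOA, CDKN1A, CITED2, FBXO32, ERBB3, CREBBP, NDRG1, MLXIPL, DEPTOR and FKBP10. In HEK001 they were PIK3R1, ERRFI1, HSP90AA1 and ARRDC1.

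The genes whose pattern was most like that of SGK1 were sought by Pearson's correlation over the 12 arrays after subtracting the mean of each line. The 5 nearest were SLC3A2, RAB31, ZNF252P, TUBB3 and VCX3A, with r between 0.981 and 0.990. SLC3A2, the heavy chain of amino acid transporters, differed by 1.36 in HEK293, and TUBB3, a tubulin typical of neurons, by 1.94. The 3 most opposed were LCN15, CDH1 and LRP8, with r of -0.992, -0.986 and -0.986. CDH1, for E-cadherin, was detected on no HEK293 A08 array and on all 3 HEK293 pLKO arrays.

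For TSC22D3 the nearest were DBN1, SLC33A2, CTXN1, IGFBP5 and DNASE2, with r between 0.984 and 0.989. DBN1, an actin-binding protein, differed by -1.45 in HEK293 and IGFBP5, which binds insulin-like growth factors, by -2.78. The most opposed were ANXA1, VIM and ZC3H8, with r of -0.991, -0.989 and -0.988. These correlations share the 12 arrays and the large difference in HEK293, and are descriptions only. VIM is among the HEK293 markers used above and ANXA1 among the receptor targets.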

How the data were processed

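Per the file headers, the authors' deposited scanner table holds 4 columns per array for 47318 probes. The authors' deposited columns are the mean signal, a linear intensity, the p-value of detection, the bead count and the bead error. The deposited intensities were background-subtracted, since 27.07% to 29.12% per array lie below 0, and not normalised. A further table deposited by the authors, with log2 values of 21270 probes and a shared column median of 6.666, was used as an alternative. GenomeStudio 2010 and R 3.0.2 are named, per the submitters' processing notes, and the steps they served are not given in the sources used here. The 12 bead error columns were not used.

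With limma 3.58.1 in R 4.3.3, intensities were corrected by normexp, fitted through the detection calls, raised by an offset of 16, quantile normalised and taken to log2. The 18152 probes detected at p under 0.01 on 3 or more of 12 arrays were kept. One linear model with 4 group means was fitted to all 12 arrays, moderated by eBayes, with 8 residual degrees of freedom and 12.6 in total. Benjamini-Hochberg adjustment ran over all kept probes, and called means an adjusted p under 0.05. Every adjusted p-value comes from limma. The kept probe with the highest mean stood for a gene in list counts.

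Genes were named by the platform annotation, in which 16040 of the array's 47318 probes have 1 gene and 3 have several. Probes without a name were not searched, so a listed gene that was not measured may still be on the array. Of the 16040, 16030 matched RefSeq genes of GRCh38.p14 by identifier, and 3741 kept probes were unnamed. Gene positions and promoter windows are those of RefSeq on GRCh38.p14.

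The members and the gene lists were chosen with earlier results of these data known. All members are described. From each list, up to 4 genes called higher and up to 4 called lower per line are named, by size of difference. The genes of like pattern are the 5 highest and 3 lowest correlations. The fit was tested on simulated data. The 22 alternatives changed the background correction, offset, scaling, probe filter, probes per gene, arrays fitted or replicate block, used the authors' values, or left out 1 array (12 of them).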

Additional observations from a re-analysis of the deposited data

Results flagged for a closer look

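On 3 member probes every A08 array lay below every pLKO array in HEK293 and above every pLKO array in HEK001. The arms did not overlap for 36.4% of all probes in HEK293 and for 32% in HEK001. Those shares count either direction in each line alone, and the share of all probes with the joint pattern is not given here. The TSC22D3 probe ILMN_1748124 differed by -2.36 in HEK293 and by 0.27 in HEK001. The TSC22D3 probe ILMN_2376403 differed by -2.57 in HEK293 and by 0.71 in HEK001, and it alone of the 3 passed the test in HEK001. The KLF9 probe ILMN_1778523 differed by -0.93 in HEK293 and by 0.28 in HEK001. The difference between the lines was not tested for these members, since TSC22D3 was chosen by its HEK293 values and KLF9 with them known.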

How the results depend on the processing

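The precision of every value is limited by 3 arrays per group, and for ILMN_2276952 of TSC22D3 and ILMN_2389347 of NR3C1 by signal near the detection limit. The count of member probes called in HEK001, 2 as reported, was 0 under median scaling over all probes, 4 with an offset of 50 (TXNIP and FOXO3 added) and 2 on leaving out any array. All probes called in HEK001 numbered 2252 as reported, 664 under median scaling over all probes, and 1388 to 2361 on leaving out 1 array, with 1480 without HEK001 pLKO replicate 2 and 1388 without HEK001 pLKO replicate 3. All probes called in HEK293 numbered 3729 as reported, 1141 under median scaling over all probes, and 2806 to 3883 on leaving out 1 array. The cause was not tested. The NR3C1 difference in HEK001 ranged from -0.16 to 0.12 and the TXNIP difference in HEK293 from -0.026 to 0.11 on leaving out 1 array, both changing sign. No other member difference in either line changed sign under any alternative. In HEK293, FKBP5, NR3C1 and DDIT4 lost their calls under median scaling over all probes. With 1 probe per gene, FOXO1 and FOXO3 passed in HEK001 (limma adjusted p = 0.0489 and 0.0465). Median scaling over kept probes was added after seeing the data. With the replicate number as a block, 2 member probes were called in HEK001 and 10 in HEK293, as without it, and 1606 and 3219 of all probes. Deviations of arrays with the same number correlated at -0.0373 to 0.07, so the numbers were not treated as pairing the samples.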

Other observations

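Among the listed pathway genes other than the members, 8 were called in opposite directions in the lines on their brightest probes. The share of all genes called in opposite directions is not given here, so nothing is read from that count. These 8 genes were picked for their opposite calls, so no test of the difference between the lines is given. NRBP2 was the one among them that kept both calls on leaving out each array in turn, at -0.67 in HEK293 and 0.69 in HEK001. NDRG1, an SGK1 substrate, differed by -1.72 in HEK293 and by 0.55 in HEK001, MAOA, a mitochondrial amine oxidase, by -1.50 and 0.69, and ERBB3 by -0.92 and 0.67. DUSP1 differed by 0.48 in HEK293 and by -0.45 in HEK001, GADD45A by 0.48 and -0.47, HSPA8 by 0.50 and -0.44, and MT1E by -0.36 and 0.40. Each of these 7 lost its HEK001 call on leaving out at least 1 array, in 4 leave-outs for NDRG1, 1 for MAOA, 2 for ERBB3, 3 for DUSP1, 4 for GADD45A, 2 for HSPA8 and 10 for MT1E. GADD45A and MT1E lost their HEK293 calls in 1 and 11 leave-outs. The other ERBB3 probe did not pass in either line.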
